A study of Mus musculus with 9 samples.

Results

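The hepatobiliary transcription factor network was examined here as 8 genes, *Hnf4a*, *Foxa1*, *Foxa2*, *Foxa3*, *Onecut1*, *Onecut2*, *Sox9* and *Cebpa*, taken by symbol from the 55276 symbols of the count table. All 8 were found and all 8 passed the filter on low counts. The cells were PPTR cells, a mouse intrahepatic cholangiocarcinoma (iCCA, bile duct cancer) line from liver cancer organoids that was adapted to culture on plastic in medium with serum. Every group came from the same mouse model, with an inducible Cre recombinase under *Prom1* (Prom1CreERT2) and a Rosa-ZsGreen reporter among its alleles. The groups were Vcam1ctrl, labelled WT, and the knockout lines Vcam1KO1 and Vcam1KO2, made with a CRISPR/Cas9 guide in exon 2 of *Vcam1*, which encodes a cell adhesion molecule. Messenger RNA was sequenced in 3 libraries per group, 9 in all. Each knockout line was a single-cell clone, so an effect of losing *Vcam1* and a property of the founder cell cannot be told apart. Nothing in the labels ties a library to one of the passages from which RNA was taken, and p values therefore measure the spread between these libraries only.

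The liver and its bile ducts arise from a common progenitor, and a small set of transcription factors that bind each other's genes keeps the descendants apart. HNF4A, a nuclear receptor, and C/EBP alpha, a leucine zipper factor, are best known for switching on hepatocyte genes such as those of plasma proteins and lipoproteins. The FOXA proteins are forkhead pioneer factors that open chromatin at liver enhancers. ONECUT1 (also called HNF6), ONECUT2 and SOX9 act in duct cells and their precursors, and SOX9 also drives cartilage genes elsewhere in the body.

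Libraries held between 53415907 and 125223073 counts. *Vcam1* stood at 248, 220 and 329 CPM (counts scaled to library size) in Vcam1ctrl libraries, at 98.8, 92.4 and 128 CPM in Vcam1KO1 libraries and at 119, 99.3 and 82.9 CPM in Vcam1KO2 libraries. *Vcam1* RNA was thus 2.57-fold lower in Vcam1KO cells, and it remained measurable in every knockout library (adjusted p = 2.1e-04, edgeR's quasi-likelihood test, adjusted by Benjamini-Hochberg over all genes tested). The authors reported loss of Vcam1 in both clones by quantitative RT-PCR and by flow cytometry of the cells. Counts over the whole gene do not measure its protein. Of duct markers, the keratin gene *Krt19* stood at 2291 ± 145 CPM (SD, n = 3) in Vcam1ctrl cells and at 16 counts or fewer in each knockout library. *Sctr*, the secretin receptor gene of normal ducts, was at 2 counts or fewer in every library, and *Prom1*, the gene whose promoter drove Cre, was at 22 counts or fewer.

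The 250 bases before the transcription start of the 3 members with a match to a factor's binding letters are shown first, since the results turn on these genes. The RefSeq promoter table used here (GRCm38.p6) was matched for 6 of the 8 genes, and *Onecut2* and *Sox9* were not matched. *Hnf4a* has 2 annotated starts far apart, and the window of the first is chr2:163506607-163506856 on the plus strand. The *Foxa1* window is chr12:57546112-57546361 and that of the first of 3 *Foxa2* starts is chr2:148046970-148047219, both on the minus strand. The *Foxa1* window precedes the RefSeq start but lies inside the gene as GENCODE vM21 places it (57540628 to 57546916). Each window is printed 5′ to 3′ on the strand of its gene. Capitals mark matches, on either strand, to the ONECUT letters ATTGAT (*Hnf4a* and *Foxa2*) and the FOXA letters TGTTTAC (*Foxa1*).
Hnf4a start 1: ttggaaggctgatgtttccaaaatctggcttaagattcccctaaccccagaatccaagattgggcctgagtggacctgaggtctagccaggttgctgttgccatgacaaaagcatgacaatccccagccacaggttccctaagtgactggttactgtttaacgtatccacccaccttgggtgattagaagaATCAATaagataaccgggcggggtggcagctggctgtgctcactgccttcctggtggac
Foxa1: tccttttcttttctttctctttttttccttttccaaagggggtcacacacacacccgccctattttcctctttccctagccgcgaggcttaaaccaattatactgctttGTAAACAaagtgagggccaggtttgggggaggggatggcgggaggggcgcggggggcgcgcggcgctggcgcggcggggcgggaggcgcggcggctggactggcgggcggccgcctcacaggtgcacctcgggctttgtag
Foxa2 start 1: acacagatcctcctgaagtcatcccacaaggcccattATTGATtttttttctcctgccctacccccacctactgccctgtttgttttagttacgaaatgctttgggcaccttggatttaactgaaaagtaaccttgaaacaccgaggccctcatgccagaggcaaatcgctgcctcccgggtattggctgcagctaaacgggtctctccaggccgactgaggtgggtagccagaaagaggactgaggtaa

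In windows of 300 bases that also took in the first 50 transcribed bases, ATTGAT lay between positions -59 and -54 of the first *Hnf4a* start and between -213 and -208 of the first *Foxa2* start. The RefSeq window of *Foxa1* held TGTTTAC, a FOXA match, from -141 to -135. Over all 32851 promoters of the same length, 7.54% held the ONECUT letters and 8.48% the FOXA letters TGTTTAC or TGTTTGC. The HNF4 letters CAAAGTCCA or CAAAGGTCA, held by 0.95% of all promoters, the C/EBP letters TTGCNNAA (10.8%) and the SOX letters ACAATGG or ACAAAGG (9.28%) were in none of the members' windows. The motifs that were matched did not overlap each other in these windows. The window of *Onecut1* had no match to any of these letters and held 38 CpG dinucleotides while each *Hnf4a* window held 4, against a median of 7.

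In Vcam1KO cells, both clones combined, 2 of the 8 genes rose and 4 fell. Of all 17672 genes tested, 43.0% passed the same threshold, 21.7% higher and 21.2% lower, so that large numbers of genes outside the network changed as well (edgeR's quasi-likelihood test, adjusted p under 0.05). The median log2 fold change of the 8 genes was -3.09, against 0.068 over all genes tested. *Hnf4a*, *Foxa3* and *Onecut1* passed the filter only through Vcam1ctrl libraries and so had to differ, which limits what the count and median show. *Hnf4a*, *Foxa3* and *Onecut1* fell to near or below the limit of 3 counts per library, *Foxa2* fell to 4 to 9 counts in Vcam1KO1 and 91 to 234 counts in Vcam1KO2 libraries, *Foxa1* and *Cebpa* rose, and *Onecut2* and *Sox9* kept high levels in every group. At 5 of the 8 genes no Vcam1KO library overlapped a Vcam1ctrl library, and 44.2% of all genes tested had such a separation. The plot of levels by library shows each value.

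**Figure D1:**
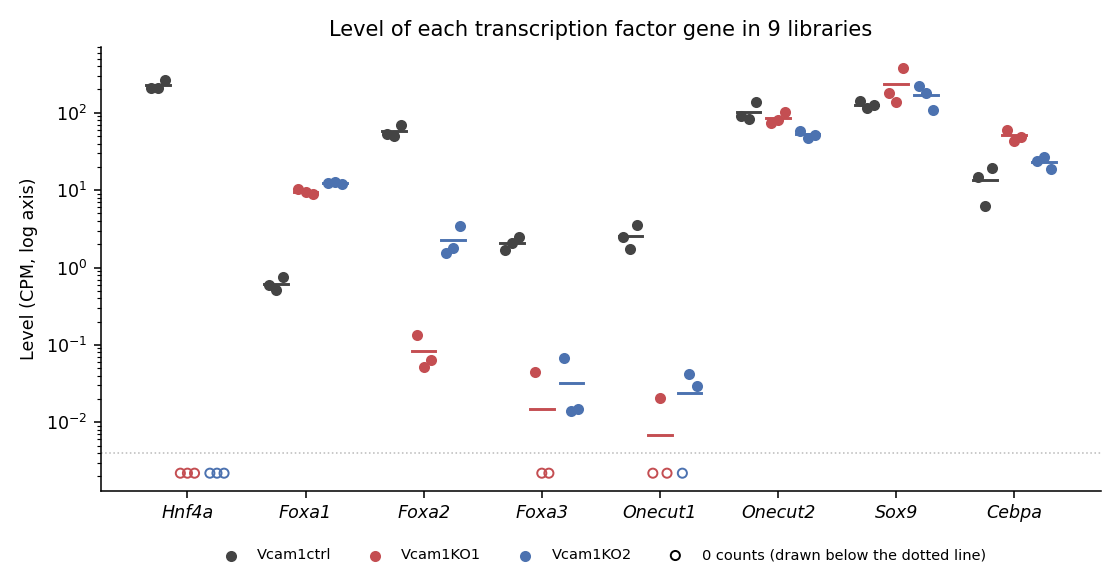
Level of each of the 8 genes in every library, in CPM scaled with TMM factors on a log axis, with points for libraries (replicates 1 to 3 from left to right) and lines for the mean of 3. Libraries with 0 counts are open circles below the dotted line, as for *Hnf4a* in all 6 knockout libraries, while *Foxa1* lies higher in all 6 than in any control library.

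*Hnf4a* was the most abundant of these genes per length of exon in Vcam1ctrl cells and was not detected in either clone. Its counts were 26055, 11239 and 20895 in Vcam1ctrl libraries (207.5, 207.3 and 264.2 CPM) and 0 in every Vcam1KO1 and Vcam1KO2 library. With the limit taken as 3 counts in a library, *Hnf4a* was at least 4405-fold lower in Vcam1KO cells (adjusted p = 7.4e-06, edgeR's quasi-likelihood test). The bound was 4729-fold in Vcam1KO1 and 4405-fold in Vcam1KO2 cells, and it differs only through the depth of the libraries. *Hnf4g*, the paralog of *Hnf4a* that is best known in the intestine, was low as well. It lay at 1.30 ± 0.26 CPM (SD, n = 3) in Vcam1ctrl cells, at 0 counts in Vcam1KO1 and at 1 to 6 counts in Vcam1KO2 libraries (log2 fold change -5.80 in both clones together, adjusted p = 6.1e-04, edgeR's quasi-likelihood test).

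Over the 9 libraries, *Mal2* was among the genes whose log2 level was most like that of *Hnf4a* (Pearson r = 0.9998, with 11586 genes compared). A total of 674 genes had an r of at least 0.95 with *Hnf4a*. All these correlations rest on 3 groups of 3 libraries, so that any gene present in controls only scores high.

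The FOXA genes changed in opposite directions. *Foxa2*, which acts early in endoderm and in mature duct and liver cells, had 53.2, 50.2 and 68.5 CPM in Vcam1ctrl libraries. It had 0.135, 0.0522 and 0.0638 CPM (9, 5 and 4 counts) in Vcam1KO1 libraries and 1.56, 1.79 and 3.46 CPM (91, 127 and 234 counts) in Vcam1KO2 libraries. The 3 groups did not overlap, with the control highest and Vcam1KO1 lowest. The log2 fold change of *Foxa2* against Vcam1ctrl was -9.44 (SE 0.47, adjusted p = 3.7e-07) in Vcam1KO1 cells and -4.65 (SE 0.35, adjusted p = 5.2e-06) in Vcam1KO2 cells in edgeR's quasi-likelihood test. These 2 comparisons share their 3 control libraries, as do all others of the clones with control.

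*Foxa1*, the close relative of *Foxa2* with which it overlaps in function during liver development, had 0.597, 0.517 and 0.746 CPM in Vcam1ctrl libraries, or 75, 28 and 59 counts. It had 10.4, 9.38 and 8.87 CPM in Vcam1KO1 libraries and 12.4, 12.9 and 12.0 CPM in Vcam1KO2 libraries. All 6 knockout libraries lay above all controls, and the values within each clone were close together. *Foxa1* rose 17.7-fold over both clones (log2 fold change 4.14, SE 0.25, adjusted p = 3.4e-06, edgeR's quasi-likelihood test), 15.3-fold in Vcam1KO1 and 19.9-fold in Vcam1KO2 cells. *Foxa3*, the FOXA gene of the adult hepatocyte, had 1.70, 2.05 and 2.52 CPM in Vcam1ctrl libraries. It had 3, 0 and 0 counts in Vcam1KO1 libraries and 4, 1 and 1 counts in Vcam1KO2 libraries. *Foxa3* was thus near the limit of detection in both clones, and it fell by 6.45 on the log2 scale over both (SE 0.76, adjusted p = 1.5e-04, edgeR's quasi-likelihood test).

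Between genes, levels were compared only after division by the length of the annotated exons. On that scale *Foxa2* made up 95.2% ± 0.43 (SD, n = 3) of the summed FOXA level in Vcam1ctrl cells and *Foxa1* 0.733% ± 0.035. In Vcam1KO1 cells *Foxa1* made up 98.6% ± 0.92 and in Vcam1KO2 cells 79.7% ± 7.42, with *Foxa2* at 20.0% ± 7.62 of the latter. The share of *Foxa1* was between 71.1 and 84.4% in the Vcam1KO2 libraries, so the ranges of the 3 groups did not overlap. The rise of *Foxa1* did not make up for the fall of *Foxa2* in level. The summed FOXA level was 25.4 ± 4.34 CPM per kilobase in Vcam1ctrl, 2.91 ± 0.26 in Vcam1KO1 and 4.71 ± 0.33 in Vcam1KO2 cells (SD, n = 3 each).

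**Figure D2:**
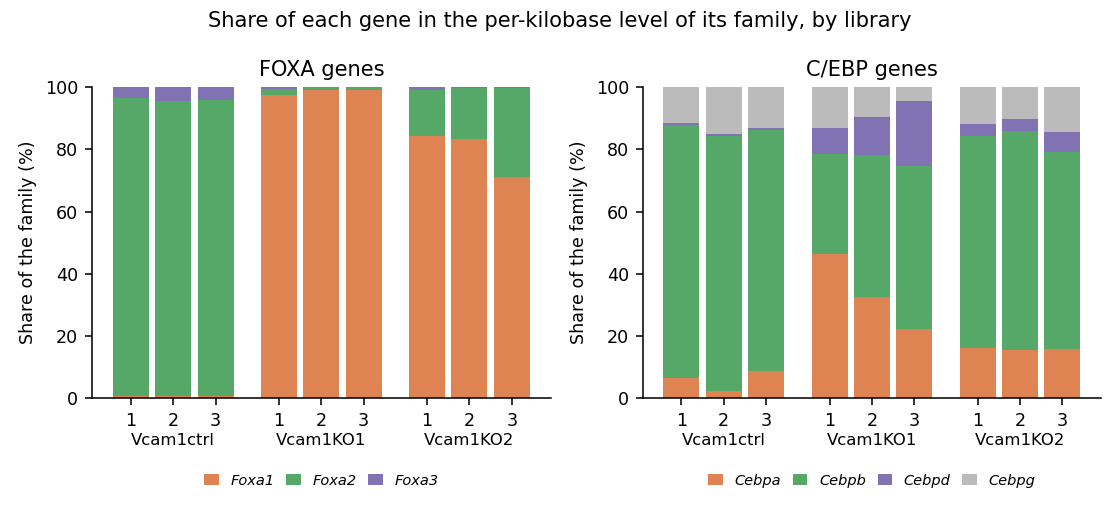
Share of each gene in the summed CPM per kilobase of its family in each library (bars, replicates 1 to 3 of each group), for the FOXA genes on the left and 4 C/EBP genes on the right. *Foxa2* fills most of the FOXA bar in the controls and *Foxa1* in the knockout libraries, while the share of *Cebpa* differs between the Vcam1KO1 libraries.

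The ONECUT genes differed from each other as well. *Onecut1* had 2.52, 1.72 and 3.54 CPM in Vcam1ctrl libraries (316, 93 and 280 counts). It had 0, 2 and 0 counts in Vcam1KO1 libraries and 0, 3 and 2 counts in Vcam1KO2 libraries, so every knockout library was at or under the limit of 3 counts. From the summed counts, *Onecut1* was 161-fold lower in Vcam1KO cells (exact 95% interval 77.5 to 401, counting error only, adjusted p = 6.7e-05 in edgeR's quasi-likelihood test). Whether the clones differed in *Onecut1* was not detectable at this depth.

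*Onecut2*, which shares targets with *Onecut1* and has the longest transcript of the 8 genes, had 90.3, 83.8 and 136 CPM in Vcam1ctrl libraries. It had 74.6, 80.9 and 103 CPM in Vcam1KO1 libraries, which overlapped the controls, and 58.3, 46.7 and 52.1 CPM in Vcam1KO2 libraries, all below every control. In Vcam1KO2 cells *Onecut2* fell by 0.98 on the log2 scale (SE 0.20, adjusted p = 0.0026, edgeR's quasi-likelihood test). In Vcam1KO1 cells the log2 fold change was -0.26 (95% confidence interval -0.71 to 0.18, adjusted p = 0.28) and over both clones -0.58 (-1.17 to 0.01, adjusted p = 0.10), neither past the threshold of the same edgeR test. The combined test of *Onecut2* depended on how the clones were treated, since the average of the clones' contrasts gave -0.62 with an adjusted p of 0.0099, and leaving out Vcam1KO1 replicate 3 gave -0.75 with 0.027 (edgeR; 0.0099 to 0.39 over all alternatives). Per kilobase, *Onecut2* made up 90.7% ± 1.41 of the ONECUT level in Vcam1ctrl cells, 99.5% ± 0.33 in Vcam1KO1 and 99.1% ± 0.64 in Vcam1KO2 cells (SD, n = 3 each).

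*Sox9*, the factor most used to mark duct cells, was present at a high level in all libraries. It had 140, 115 and 124 CPM in Vcam1ctrl libraries, 180, 139 and 378 CPM in Vcam1KO1 libraries and 223, 179 and 107 CPM in Vcam1KO2 libraries. Both clones overlapped the controls, and Vcam1KO1 replicate 3 lay far above its fellows. No comparison of *Sox9* passed the threshold in edgeR's quasi-likelihood test, with a log2 fold change of 0.67 over both clones (95% confidence interval -0.13 to 1.46, adjusted p = 0.15), 0.88 in Vcam1KO1 (0.05 to 1.70, adjusted p = 0.065) and 0.42 in Vcam1KO2 cells (-0.40 to 1.25, adjusted p = 0.36). The upper end of each of these intervals lies above a 2-fold rise. Without Vcam1KO1 replicate 3 the log2 fold change of *Sox9* in that clone was 0.34.

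*Cebpa* had 14.8, 6.31 and 19.6 CPM in Vcam1ctrl libraries, 60.7, 43.4 and 49.0 CPM in Vcam1KO1 libraries and 23.5, 26.8 and 18.7 CPM in Vcam1KO2 libraries. All Vcam1KO1 libraries lay above every other library, whereas the lowest Vcam1KO2 library lay below the highest control. *Cebpa* rose in Vcam1KO1 cells by 1.91 on the log2 scale, or 3.75-fold (SE 0.35, adjusted p = 0.0012, edgeR's quasi-likelihood test). In Vcam1KO2 cells the value was 0.76 (95% confidence interval -0.01 to 1.53, adjusted p = 0.093) and did not pass in the same edgeR test. Over both clones *Cebpa* was 2.73-fold higher (log2 fold change 1.45, SE 0.47, adjusted p = 0.033, edgeR's quasi-likelihood test). That call was lost without Vcam1ctrl replicate 1 (adjusted p = 0.086) or 2 (0.11), or any Vcam1KO1 library (0.053 to 0.06), and it ranged from 0.0049 to 0.11 over all alternatives in edgeR, limma-voom and DESeq2.

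Of the other C/EBP genes, *Cebpd* rose as *Cebpa* did, while *Cebpb* and *Cebpg* fell. *Cebpb*, the form induced in inflammation, fell from 110 ± 10.9 to 41.4 ± 21.5 CPM in Vcam1KO1 and 55.8 ± 12.99 CPM in Vcam1KO2 cells (SD, n = 3 each; log2 fold change -1.18 over both, adjusted p = 0.01, edgeR's quasi-likelihood test). *Cebpd* rose by 3.48 on the log2 scale (adjusted p = 0.0064) and *Cebpg* fell by 1.07 (adjusted p = 0.0024) in the same edgeR test. Per kilobase, *Cebpa* made up 5.80% ± 3.15 of these 4 genes in Vcam1ctrl, 33.8% ± 12.1 in Vcam1KO1 and 15.9% ± 0.28 in Vcam1KO2 cells (SD, n = 3 each), and its range did not overlap between any 2 groups.

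Ordered by CPM per kilobase of exon, Vcam1ctrl cells had *Hnf4a* (46.9 ± 6.78), *Sox9* (30.6 ± 3.15), *Foxa2* (24.2 ± 4.14), *Onecut2* (6.37 ± 1.75), *Cebpa* (5.15 ± 2.55), *Foxa3* (1.03 ± 0.20), *Onecut1* (0.630 ± 0.22) and *Foxa1* (0.186 ± 0.035), each as mean and SD of 3 libraries. In that order the ranges of *Sox9* and *Foxa2* overlapped, as did those of *Onecut2* and *Cebpa* and those of *Foxa3* and *Onecut1*. In Vcam1KO1 cells *Sox9* led at 56.1 ± 30.9, followed by *Cebpa* (19.4 ± 3.35), *Onecut2* (5.30 ± 0.91) and *Foxa1* (2.87 ± 0.23), with no overlap between neighbours and the other 4 at or under 0.057 in every library. In Vcam1KO2 cells the order was *Sox9* (41.0 ± 14.1), *Cebpa* (8.72 ± 1.56), *Foxa1* (3.74 ± 0.13), *Onecut2* (3.23 ± 0.36) and *Foxa2* (0.958 ± 0.44), again with no overlap between neighbours. *Foxa1*, last of the 8 in the controls, ranked 4 in Vcam1KO1 and 3 in Vcam1KO2 cells.

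Against Vcam1ctrl, 2 of the 8 genes rose and 4 fell in Vcam1KO1 cells, where 59.9% of all genes tested passed the threshold (29.9% higher and 30.0% lower). In Vcam1KO2 cells 1 rose and 5 fell, and 51.4% of all genes passed (25.3% higher and 26.1% lower). Between the clones themselves, *Onecut2* and *Cebpa* were higher and *Foxa2* was lower in Vcam1KO1 cells, 3 of the 8 genes, against 38.7% of all genes tested (20.2% higher and 18.5% lower). *Foxa2* was 27.6-fold lower in Vcam1KO1 than in Vcam1KO2 cells (log2 fold change -4.79, SE 0.44, adjusted p = 6.2e-05), *Onecut2* was 1.64-fold higher (0.72, SE 0.20, adjusted p = 0.019) and *Cebpa* was 2.22-fold higher (1.15, SE 0.35, adjusted p = 0.026) in edgeR's quasi-likelihood test. The calls of *Onecut2* and *Cebpa* between the clones were lost when single libraries were left out, and only *Foxa2* was called without Vcam1KO2 replicate 2 or 3. *Foxa1* was lower in every Vcam1KO1 than in every Vcam1KO2 library, by 0.38 on the log2 scale (95% confidence interval -0.75 to -0.01), but did not pass in edgeR (adjusted p = 0.094), whereas limma-voom (0.045) and DESeq2 (0.013) did call it (0.013 to 0.22 over all alternatives). *Sox9* (0.45, interval -0.37 to 1.27) and *Foxa3* (-1.10, interval -3.63 to 1.44) did not pass between the clones.

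**Figure D3:**
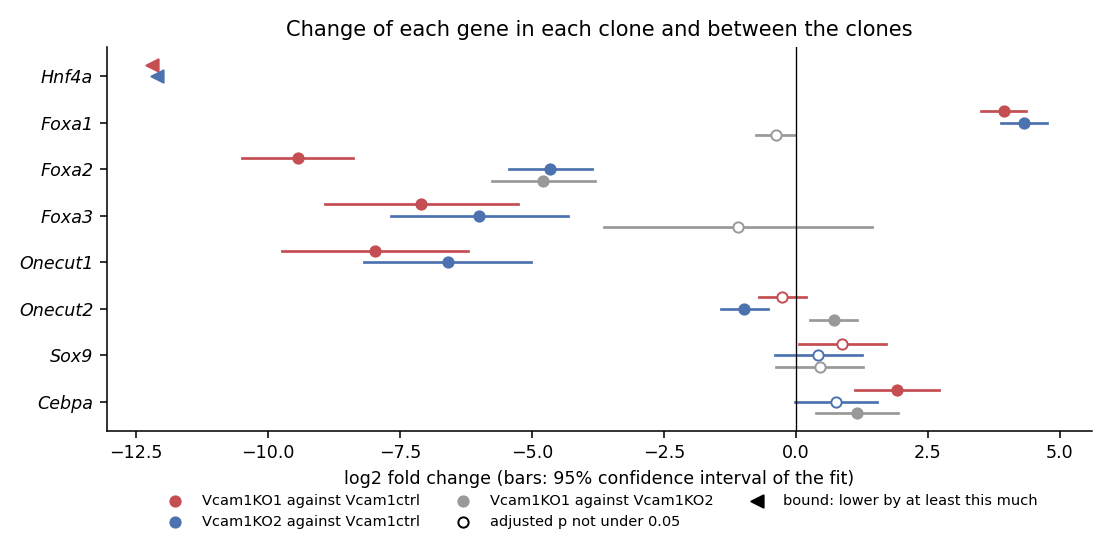
Log2 fold change of each of the 8 genes in Vcam1KO1 and Vcam1KO2 cells against Vcam1ctrl and between the clones, with the 95% confidence interval of the edgeR fit. Arrowheads give the bound for *Hnf4a*, at 0 counts in both clones, and open circles stand for an adjusted p not under 0.05, as for *Sox9* throughout. The clones are not compared for *Hnf4a* and *Onecut1*, which were at or under 3 counts in both.

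The nearest protein-coding genes in GRCm38 (GENCODE vM21) were compared with each member over both clones. *Foxa1* (chromosome 12, 57540628 to 57546916, minus strand) lies between *Mipol1*, 43429 nt away, and *Ttc6*, 17197 nt away. *Ttc6* rose from 0.0768 ± 0.023 CPM to 2.06 ± 0.34 in Vcam1KO1 and 1.37 ± 0.37 CPM in Vcam1KO2 cells (SD, n = 3 each; log2 fold change 4.46, adjusted p = 5.1e-05), whereas *Mipol1* on the other side fell by 1.56 (adjusted p = 6.6e-04, edgeR's quasi-likelihood test). *Ttc6*, at 11 counts or fewer in each Vcam1ctrl library, passed the filter only through knockout libraries and so had to differ. In level, the neighbour on one side of *Foxa1* moved with it and the neighbour on the other moved against it. *Hnf4a* (chromosome 2, 163506808 to 163572910, plus strand) is preceded by *R3hdml*, 4196 nt away, which fell by 4.37 on the log2 scale (adjusted p = 6.6e-04), and followed by *Ttpal*, 29404 nt away, at 0.23 (adjusted p = 0.20, edgeR's quasi-likelihood test). The antisense gene *Hnf4aos*, which overlaps *Hnf4a*, had 7 to 10 counts in Vcam1ctrl libraries and 0 to 2 in the knockout libraries. The libraries were stranded and counted with a strand setting, so its reads and those of *Hnf4a* were told apart.

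*Foxa3* (chromosome 7, 19013284 to 19023538, minus strand) lies 839 nt from *Sympk*, which fell by only 0.44 on the log2 scale (adjusted p = 0.013), and 6507 nt from *Irf2bp1*, at -0.09 (adjusted p = 0.67, edgeR's quasi-likelihood test). *Onecut1* (chromosome 9, 74861921 to 74891781, plus strand) has *Wdr72* and *Fam214a* beside it, at -0.61 and 1.48 on the log2 scale, neither past the threshold. *Foxa3* and *Onecut1* thus had expressed neighbours without a fall of similar size. *Hnf4a* had both kinds, *R3hdml*, which fell, and *Ttpal*, with a mean of 40.9 CPM in Vcam1ctrl and 47.8 CPM in Vcam1KO libraries. Beside *Sox9* (chromosome 11, 112782224 to 112787760, plus strand), *Kcnj2* rose by 3.07 at a distance of 1705403 nt and *Slc39a11* fell by 1.21 at 457093 nt (adjusted p = 4.7e-04 and 4.9e-05, edgeR's quasi-likelihood test). Beside *Cebpa* (chromosome 7, 35119293 to 35121928, plus strand) lies its family member *Cebpg*, which fell, and the overlapping antisense gene *Gm45091* was at -0.12 (adjusted p = 0.83, edgeR). Beside *Onecut2*, *Fech* rose by 1.06 (adjusted p = 4.6e-04, edgeR). *Foxa2* (chromosome 2, 148042877 to 148046969, minus strand) has no protein-coding gene within 300 kilobases, and *Pax1* and *Sstr4* on its sides had 7 counts or fewer in every library.

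**Figure D4:**
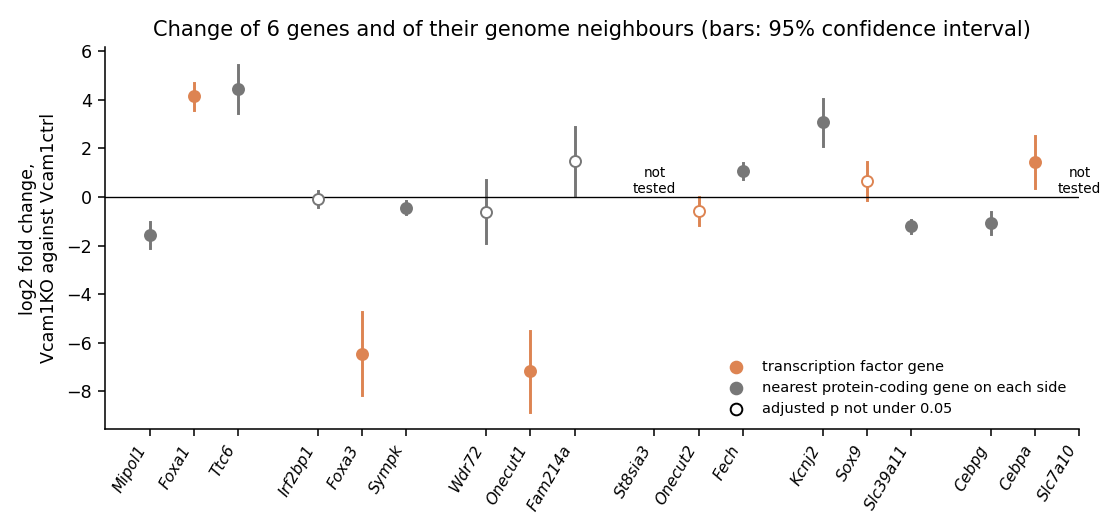
Log2 fold change over both clones against Vcam1ctrl of 6 of the genes and of the nearest protein-coding gene on each side, with the 95% confidence interval of the edgeR fit and open circles for an adjusted p not under 0.05. *Ttc6*, which passed the filter only through knockout libraries, rises with *Foxa1*, while the neighbours of *Foxa3* and *Onecut1* lie far above them.

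Among the other genes most like a member across the 9 libraries, *Foxa1* was followed most closely by *Aqp5*, a water channel gene of secretory epithelia (Pearson r = 0.997), and *Dpy19l3* (0.997). For *Foxa2* these were *Sec14l1* (0.996) and *Helz2* (0.995), for *Foxa3* *Cxxc4* (0.996) and *Aplp1* (0.994), and for *Onecut1* *Napsa* (0.995) and *Gm47163* (0.994). The number of genes with an r of at least 0.95 was 609 for *Foxa1*, 402 for *Foxa2*, 492 for *Foxa3* and 550 for *Onecut1*, but only 73 for *Cebpa*, 12 for *Onecut2* and 3 for *Sox9*. *Cebpa* was most like *Siae* (0.983), *Onecut2* most like *Smcr8* (0.971) and *Sox9* most like *Abca8a* (0.967). The counts were thus larger for members whose knockout and control libraries did not overlap than for those whose libraries did.

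A list of 22 other transcription factors and co-factors of the liver was examined next, of which 18 were tested. Over both clones 5 rose, 8 fell and 5 did not pass, with a median log2 fold change of -0.46. Of all genes tested, 43.0% passed. Some of the 18 passed the filter only through the group where they were high and so had to differ. *Prox1* passed through Vcam1ctrl libraries, and *Tbx3*, at 19 counts or fewer in each Vcam1ctrl library, through knockout libraries. The largest increases were those of *Tbx3*, a T-box repressor of the early liver bud (log2 fold change 4.66, adjusted p = 0.0092), and *Ppargc1a*, the co-activator of mitochondrial and gluconeogenic genes (2.44, adjusted p = 0.013), in edgeR's quasi-likelihood test. They differed between the clones, since *Tbx3* was higher in Vcam1KO2 cells (6.65 ± 1.35 CPM against 0.791 ± 0.14) and *Ppargc1a* in Vcam1KO1 cells (39.7 ± 14.1 against 10.8 ± 1.37 CPM, SD, n = 3 each). *Prox1*, a homeobox gene of hepatoblasts and among the largest decreases, had 127 to 318 counts in Vcam1ctrl and 3 or fewer in the knockout libraries. Of 15 family relatives of the 8 genes, 13 were tested, and 3 rose and 3 fell, close to the 43.0% of all genes tested that passed. The forkhead genes *Foxf1* (3.88, adjusted p = 4.9e-04) and *Foxc1* (3.45, adjusted p = 2.3e-05), both known from mesenchyme, rose along with *Cebpd*, while *Hnf4g*, *Cebpb* and *Cebpg* fell (edgeR's quasi-likelihood test). *Hnf4g*, at 6 counts or fewer in each knockout library, passed the filter only through Vcam1ctrl libraries and so had to differ.

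Of 30 hepatocyte genes with known sites for HNF4A, FOXA and C/EBP factors, 8 had a mean of at least 1 CPM in Vcam1ctrl cells, and 13 passed the filter over all groups. Of these 13, 1 rose, 9 fell and 3 did not pass over both clones, and the median log2 fold change was -5.59. Of all genes tested, 43.0% passed over both clones. Several of the 13 passed the filter only through the group where they were high. *Ttr*, *Ambp* and *Serpina1a* had 6 counts or fewer in every knockout library, and *Abcb11* had 4 or fewer outside Vcam1KO1. Such genes had to differ, so the counts of calls and the median are not a test of the list. In Vcam1KO1 cells 4 were called higher and 8 lower, and in Vcam1KO2 cells 0 higher and 9 lower (edgeR's quasi-likelihood test). Over all genes tested, 59.9% were called in Vcam1KO1 and 51.4% in Vcam1KO2 cells. *Trf*, the transferrin gene, went from 2129 ± 750 CPM (SD, n = 3) in Vcam1ctrl cells to 3.23 ± 2.79 in Vcam1KO1 and 3.98 ± 1.20 CPM in Vcam1KO2 cells (log2 fold change -9.21, adjusted p = 3.2e-06, edgeR). *Apob*, the lipoprotein gene, went from 464 ± 95.5 CPM (SD, n = 3) in Vcam1ctrl cells to between 1 and 14 counts in the knockout libraries (log2 fold change -11.96, adjusted p = 3.1e-07), and *Ttr*, encoding transthyretin, fell by 11.33 (adjusted p = 1.5e-05, edgeR's quasi-likelihood test). The 4 genes called higher in Vcam1KO1 cells, *Apoh*, *Fga*, *Apoa2* and *Abcb11*, had means under 1 CPM in all groups. *Apoh* stood at 0.124 ± 0.080 CPM in Vcam1ctrl and 0.758 ± 0.076 CPM in Vcam1KO1 cells (SD, n = 3 each). The summed level of the 30 genes, most of it from *Trf* and *Apob*, was 2044 to 3824 CPM in Vcam1ctrl, 6.78 to 14.7 CPM in Vcam1KO1 and 4.23 to 7.56 CPM in Vcam1KO2 libraries.

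Of 25 biliary and cyst genes of the ONECUT and SOX9 programmes and of related duct factors, 21 were tested and split, with 6 higher, 10 lower and 5 not past the threshold over both clones. Of all genes tested, 21.7% were higher and 21.2% lower. *Krt19*, *Epcam* and *Cftr*, at 16 counts or fewer in each knockout library, passed the filter only through Vcam1ctrl and so had to differ. *Krt19* fell by 14.40 on the log2 scale (adjusted p = 2.3e-07) and *Epcam*, an epithelial adhesion gene, fell by 10.05 (adjusted p = 1.5e-05). *Aqp5* rose by 5.12 (adjusted p = 7.1e-07) and *Pkhd1*, the fibrocystin gene of the duct cilium, by 2.11 (adjusted p = 0.0038, edgeR's quasi-likelihood test). The same 10 genes that fell over both clones were called lower in each clone, among them the chloride channel gene *Cftr* and the keratin gene *Krt7*. Over all genes tested, 30.0% were lower in Vcam1KO1 and 26.1% in Vcam1KO2 cells.

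Cartilage genes of the SOX9 programme are given as levels only, since several of the 12 that passed the filter did so through Vcam1KO1 libraries and therefore had to differ. *Comp*, a matrix protein gene, had 5.21, 4.38 and 17.2 CPM in Vcam1KO1 libraries and 0.206 to 0.240 CPM in Vcam1KO2 libraries. *Cnmd*, the chondromodulin gene, was at 0 counts in Vcam1ctrl libraries, at 1 or 2 counts in Vcam1KO2 libraries and at 7.24 to 46.8 CPM in Vcam1KO1 libraries. The summed level of the 15 genes was 18.3 to 27.9 CPM in Vcam1ctrl and 12.4 to 17.6 CPM in Vcam1KO2 libraries, and 39.5, 44.2 and 149 CPM in the Vcam1KO1 libraries in ascending order. The 149 CPM came from Vcam1KO1 replicate 3 alone, which also had the highest *Sox9*, and the other 2 libraries of that clone reached at most 44.2 CPM.

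Most of the tested markers of fibroblasts and stellate cells changed as well, whereas the 8 genes moved in both directions. Of 9 fibroblast and stellate cell markers tested, of 12 on the list, 7 rose over both clones, led by the collagen genes *Col1a1* (log2 fold change 6.06, adjusted p = 1.4e-05) and *Col3a1* (4.88, adjusted p = 0.0022, edgeR's quasi-likelihood test). Over all genes tested, 43.0% passed over both clones, 21.7% of them all as higher, and 59.9% passed in Vcam1KO1 cells. In Vcam1KO1 cells 6 rose and 1 fell, *Dcn*, the decorin gene, which stood at 74.6 ± 26.6 CPM in Vcam1ctrl, 4.34 ± 3.47 in Vcam1KO1 and 92.0 ± 34.9 CPM in Vcam1KO2 cells (SD, n = 3 each). The list's summed level was 432 to 836 CPM in Vcam1ctrl, 10472 to 13044 CPM in Vcam1KO1 and 6218 to 7529 CPM in Vcam1KO2 libraries. A culture cannot show from its total RNA whether each cell changed or the share of cells of a kind did, and the part of this change in the levels of the 8 genes was not tested. Of 4 haematopoietic markers tested, 1 rose (*Lyz2*) and 2 fell (*Csf1r* and *Ptprc*), with *Ptprc*, the pan-leukocyte gene, at 48 counts or fewer in every library and a summed level whose range overlapped between all groups, 7.01 to 20.8 CPM over all libraries. Of 4 endothelial markers tested, 1 (*Stab2*) rose and 3 did not pass, and the summed level was 1.14 to 2.52 CPM in Vcam1ctrl, 3.51 to 5.04 CPM in Vcam1KO1 and 1.26 to 2.33 CPM in Vcam1KO2 libraries. *Stab2* and *Lyz2* passed the filter only through knockout libraries and *Ptprc* only through Vcam1ctrl libraries, so these genes had to differ. Mean *Lyz2* was 4.07 CPM in Vcam1KO1, 0.219 in Vcam1KO2 and 0.114 CPM in Vcam1ctrl cells.

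**Figure D5:**
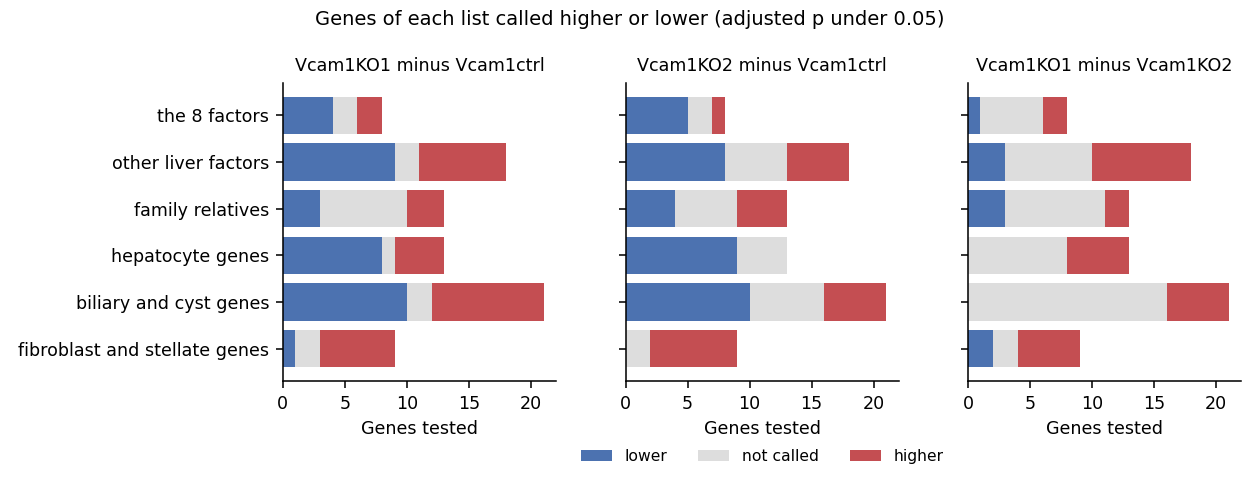
Number of genes tested in each list that were called lower, not called or called higher (adjusted p under 0.05, edgeR's quasi-likelihood test) in Vcam1KO1 and Vcam1KO2 cells against Vcam1ctrl and in Vcam1KO1 against Vcam1KO2 cells. Hepatocyte genes are mostly lower in both clones (8 and 9 of 13), and biliary and cyst genes go both ways. Over all genes tested, 59.9%, 51.4% and 38.7% were called in these comparisons, in the same order. Genes that passed the filter only through the group where they were high had to differ.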

How the data were processed

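Messenger RNA of Vcam1ctrl, Vcam1KO1 and Vcam1KO2 PPTR cells was made by the authors into 9 stranded libraries and read from both ends. Reads were pseudoaligned by the authors with kallisto 0.46.1 to GRCm38 transcripts, and the deposited table holds estimated counts per gene symbol, all whole numbers and not normalized. How transcripts were summed to genes is not given in the sources used here. Libraries were grouped by title. Totals lay between 53415907 and 125223073, and a count of 3 per library was taken as the limit of detection.

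Counts were scaled with TMM and filtered with filterByExpr (17672 genes left) in edgeR 4.0.16 (R 4.3.3). Both clones were set against control in a fit with 2 groups, and the clones against control and each other in a fit with 3 groups over 9 libraries. The quasi-likelihood test was used with Benjamini-Hochberg adjustment over all genes and a threshold of 0.05. A gene at 0 in a whole group was given a bound against the highest limit among its libraries. Where every library of 1 compared group, but not of the other, held 3 counts or fewer, a ratio of summed counts with its exact interval was given. Where both groups were at or under 3 counts, no fold was given. CPM uses TMM factors, and likeness between genes used log2 CPM with a prior count of 2. Alternatives were limma-voom (limma 3.58.1), DESeq2 1.42.0, upper-quartile and RLE factors, no filter, a filter at 1 CPM, fits on 6 libraries, a mean over the contrasts of both clones, leaving out each library, and CPM without TMM. The length of the longest transcript was added after seeing the data. Replicates of a group differed by more than sampling noise.

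The 8 genes, the lists and the tests were chosen with earlier results of these data known. Genes named are all 8, their genome neighbours, the 2 genes most like each of the 8 (of those with a mean of 5 CPM in a group), and of each list up to 2 increases and 2 decreases, the largest past the threshold with a mean of 1 CPM in a group. Some genes this rule would name are left out. *Vcam1*, *Sctr*, *Prom1*, *Cftr*, *Krt7*, *Cebpg*, *Foxc1*, *Ptprc*, *Trf*, *Apoh*, *Fga*, *Apoa2*, *Abcb11*, *Cnmd* and *Dcn* were named besides, all but the first after their values were seen. The fit was tested on simulated data for 17249 genes with 200 changed by 2-fold. Of these, 127 were called in Vcam1KO against Vcam1ctrl, each with the simulated sign, and 9 unchanged genes were called too. Against control, 71 were called in Vcam1KO1 and 81 in Vcam1KO2, along with 7 and 5 unchanged genes. Far fewer genes changed in this simulation than were called in the data, so it does not check the fit at that share.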

Additional observations from a re-analysis of the deposited data

Results flagged for a closer look

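Of the 8 genes, 3 differed between the clones in a direct test (edgeR's quasi-likelihood test, adjusted by Benjamini-Hochberg, Vcam1KO1 minus Vcam1KO2), so that their change against control was not the same in both. Of all genes tested, 38.7% were called in the same comparison, close to the share of the 8 genes. *Foxa2* differed by -4.79 on the log2 scale (adjusted p = 6.2e-05, lower in 3 of 3 Vcam1KO1 libraries). *Onecut2* differed by 0.72 (adjusted p = 0.019, higher in 3 of 3) and *Cebpa* by 1.15 (adjusted p = 0.026, higher in 3 of 3). Of 13 alternatives, 10 also called *Onecut2* and 9 *Cebpa*. The cause of these differences was not tested, and each clone descends from 1 cell.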

How the results depend on the processing

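The calls of *Hnf4a*, *Foxa1*, *Foxa2*, *Foxa3* and *Onecut1* against control held in both clones and in their combination under every alternative that gave a value, as did the call of *Foxa2* between the clones. For *Hnf4a*, *Foxa3* and *Onecut1*, which passed the filter only through Vcam1ctrl libraries, this outcome was fixed in advance and adds no support. The alternatives did move other calls. Between the clones, 3 of the 8 genes were called, against 1 to 3 when single libraries were left out, the lowest without Vcam1KO2 replicate 2 or 3, and 4 with limma-voom, DESeq2 or a fit on 6 libraries. In the same comparison *Sox9* reversed to -0.0915 without Vcam1KO1 replicate 3 and lay between that and 0.713 without any other clone library, and *Foxa1* was called on 6 libraries (adjusted p = 0.045, edgeR). *Sox9* in Vcam1KO1 cells was called by DESeq2 (adjusted p = 0.049), and by edgeR without a filter (0.041) or without Vcam1KO1 replicate 2 (0.022), in a range up to 0.31 over all alternatives. *Cebpa* in Vcam1KO2 cells was called without Vcam1ctrl replicate 3 (1.11, adjusted p = 0.028, edgeR, up to 0.23 under others). Of the count of all genes called over both clones, 7591, the alternatives gave 5583 to 10464. With the length of the longest transcript, the share of *Foxa1* among FOXA genes in Vcam1ctrl cells was 0.689%, that of *Foxa2* 95.7% and that of *Cebpa* among C/EBP genes in Vcam1KO2 cells 15.6%. A filter at 1 CPM left *Foxa3* and *Onecut1* without a value. No paired analysis was possible because the labels carry no replicate numbers. Depth limits *Hnf4a*, *Foxa3* and *Onecut1* in the clones, where differences under the limit of 3 counts could not be seen, and the causes of the moved calls were not tested.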

Other observations

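The gene of the long non-coding RNA *9030622O22Rik* lies 2674 nt from *Foxa2*, at lower coordinates on the same strand. It was chosen after its values were seen. It had 30 to 112 counts in Vcam1ctrl libraries, 0 or 1 in Vcam1KO1 libraries and 0 to 2 in Vcam1KO2 libraries. From summed counts it was 127-fold lower in Vcam1KO cells (exact 95% interval 42.8 to 619, counting error only, adjusted p = 1.4e-04 in edgeR's quasi-likelihood test). Because it was chosen in this way and passed the filter only through Vcam1ctrl libraries, neither the interval nor the p value is a test of this fall. *Foxa2* itself kept 91 to 234 counts in Vcam1KO2 libraries.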
